A study of Mus musculus with 6 samples.

Results

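MicroRNAs are made and used by a small set of proteins, and 10 of their genes are described here: Drosha and Dgcr8 of the nuclear Microprocessor, the export receptor Xpo5, the cytoplasmic nuclease Dicer1, the Argonaute genes Ago1, Ago2 and Ago3, and the GW182 scaffold genes Tnrc6a, Tnrc6b and Tnrc6c. They were chosen by name, with earlier results of these data known. A gene counted as measured where the array annotation gave it a probe set with no other gene symbol, the brightest one standing for the gene. That held for 8 of the 10, out of 21996 named genes on the array. Dgcr8 shares its probe set with Mir1306 and Tnrc6b shares its probe set with Mir5113, so neither has a value here.

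The cells were adipocytes made from C3H10T1/2, a mouse mesenchymal stem cell line, and each of 6 cultures was read on 1 Affymetrix Mouse Gene ST array. In 3 biological replicates an adenovirus carried a hairpin against Zc3h10 under a U6 promoter (Zc3h10 shRNA), and in 3 it carried a scrambled hairpin (scramble). All 6 cultures are labelled as at day 9 of differentiation and were exposed to virus for 72 h at a multiplicity of infection of 50. When the virus was added is not stated, and whether the replicates were separate differentiations is not stated beyond the word biological. The comparison asks which transcripts differ when the hairpin targets Zc3h10, the gene of a zinc finger RNA-binding protein.

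The pathway runs in a fixed order. Drosha, held by Dgcr8, cuts a hairpin out of the primary transcript, exportin-5 carries it to the cytoplasm, and Dicer trims it to a duplex. An Argonaute protein keeps 1 strand as a guide, and GW182 proteins link it to the deadenylases that shorten the target's poly(A) tail. Short hairpin RNAs made from a U6 promoter use exportin-5, Dicer and Argonaute too, and the cells of both groups carried one.

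In the Zc3h10 shRNA cells 3 of the 8 measured genes rose and 0 fell: Dicer1 (1.38-fold), Ago1 (1.37-fold) and Tnrc6c (1.33-fold). Drosha, Ago3, Tnrc6a, Xpo5 and Ago2 did not pass the threshold, an adjusted p under 0.05 (limma over all 33079 probe sets, Benjamini-Hochberg adjustment). Of all named genes 12.1% passed, 5.51% higher and 6.60% lower. All 8 changes were above 0, as were 52.9% of named genes, and their median log2 change was 0.27, against 0.01 over all named genes. In 6 of the 8 genes every shRNA array lay above every scramble array, as it did for 16.7% of named genes. That 16.7% covers named genes at every level, dim ones among them, and was not taken at the levels of these 8. With 8 genes, these shares describe the genes and test nothing about them as a set.

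All 8 measured genes had a mean log2 intensity between 6.96 and 8.81 in either group. That is above 4.34, the top of the central 95% range of scramble levels over 1379 genes of olfactory and vomeronasal receptors (called the receptor limit here). Those receptors are mostly silent outside sensory tissue, so the limit marks probe sets that read little but background. Among the 11329 named genes above it in both groups, 9.66% passed as higher. Each log2 change is the shRNA mean minus the scramble mean, given with limma's standard error, means are intensities on a linear scale with the SD of 3 arrays, and levels are not compared between genes because each is read by its own probes.

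The hairpin's own target comes first. Zc3h10 read 25.2, 30.2 and 22.9 intensity units on shRNA arrays 1 to 3, against 25.9, 39.0 and 35.3 on scramble arrays 1 to 3. Scramble array 1 fell among the shRNA values, and the log2 change of −0.34 ± 0.17 did not pass (limma, adjusted p = 0.301). Array medians over all probe sets were 15.6 to 16.1, and log2 values correlated across probe sets at 0.992 to 0.994 within a group and 0.985 to 0.988 between groups.

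Drosha, the nuclease that starts processing in the nucleus, read 291, 272 and 276 on shRNA arrays 1 to 3, against 230, 241 and 230 on scramble arrays 1 to 3. The groups did not overlap. Its log2 change was 0.26 ± 0.08, a ratio of 1.20 with a 95% interval of 1.05 to 1.37, and it did not pass over the whole array (limma, unadjusted p = 0.0149, adjusted p = 0.106). It did pass in 4 of 17 alternative analyses, among them an intensity trend in the variance prior (limma, adjusted p = 0.0247) and a test over probe sets at or above the median level alone (0.0316).

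Xpo5 encodes exportin-5, which carries precursor hairpins out of the nucleus together with Ran. It read 226, 216 and 244 on the shRNA arrays, against 213, 214 and 219 on the scramble arrays. The groups overlapped, since shRNA array 2 lay within the range of the scramble arrays while the other shRNA arrays were above it. The log2 change was 0.08 ± 0.09 (limma, adjusted p = 0.672), and the 95% interval of the ratio, 0.920 to 1.22, still holds a rise of the size measured for Drosha.

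Dicer1 encodes the nuclease that turns precursor hairpins into duplexes. Its intensity was 217, 228 and 243 on shRNA arrays 1 to 3, against 166, 173 and 160 on scramble arrays 1 to 3. Every shRNA array was brighter than every scramble array by a wide margin relative to the spread within either group. The mean was 229 ± 12.7 in shRNA cells and 166 ± 6.22 in scramble cells, a rise of 0.46 ± 0.09 on the log2 scale (limma, adjusted p = 0.0153; 95% interval of the ratio 1.19 to 1.59). Of named genes, 4.81% had a larger positive change. The call was lost without shRNA replicate 2 (limma, adjusted p = 0.0513), shRNA replicate 3 (0.0639) or scramble replicate 3 (0.0626), while the log2 change stayed between 0.40 and 0.50 in all 17 alternatives.

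**Figure D1:**
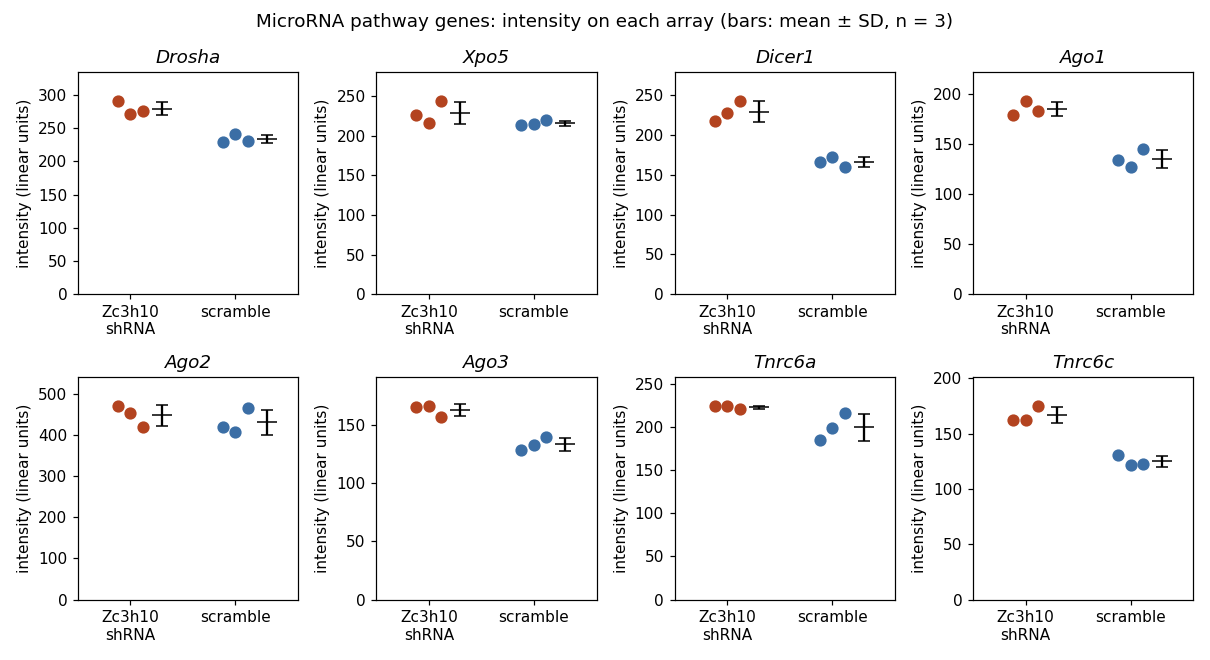
Linear intensity of the 8 measured genes on each array, 1 panel a gene, Zc3h10 shRNA at left and scramble at right, with the mean and SD of 3 arrays as bars; axes start at 0 and differ between panels. The groups stand apart for Dicer1, Ago1, Tnrc6c, Drosha and Ago3, narrowly for Tnrc6a, and overlap for Xpo5 and Ago2.

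The Argonaute genes come next. Ago1 read 179, 194 and 183 on the shRNA arrays, against 134, 128 and 145 on the scramble arrays. The lowest shRNA array was above the highest scramble array. Means were 185 ± 7.37 in shRNA cells and 136 ± 8.73 in scramble cells, a rise of 0.45 ± 0.09 (limma, adjusted p = 0.0184; 95% interval of the ratio 1.18 to 1.58).

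Ago3, whose protein like that of Ago1 is mainly known for silencing without cutting the target, read 166, 166 and 157 on the shRNA arrays, against 128, 133 and 140 on the scramble arrays. The groups did not overlap. The log2 change of 0.29 ± 0.09, a ratio of 1.22, did not pass (limma, unadjusted p = 0.0100, adjusted p = 0.0810), and it passed in 4 of 17 alternatives, the same 4 settings as for Drosha.

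Ago2 encodes the Argonaute that in mammals can cleave a fully paired target. Its intensity was 470, 454 and 420 on the shRNA arrays, against 419, 407 and 465 on the scramble arrays. The groups were mixed, and scramble array 3 was nearly as bright as the brightest shRNA array. The log2 change was 0.06 ± 0.10 (limma, adjusted p = 0.801), with a 95% interval of the ratio from 0.894 to 1.21. The 1.37-fold rise fitted for Ago1 lies outside that interval, but the interval of Ago1 itself, 1.18 to 1.58, overlaps it.

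Within an array the change of Ago1 exceeded that of Ago2 by 0.39 ± 0.06 log2 units, that of Ago3 exceeded that of Ago2 by 0.23 ± 0.04, and that of Ago1 exceeded that of Ago3 by 0.16 ± 0.05 (SE over arrays, n = 3 a group). In each of the 3 pairs the shRNA arrays did not overlap the scramble arrays, and the exact permutation test (two-sided) had p = 0.1, the smallest that 3 against 3 arrays allow. Of 6 such pairs of genes compared, chosen after the values were seen, all 6 had an exact permutation p of 0.1, or 0.1 after Benjamini-Hochberg adjustment, so none can pass 0.05.

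The fourth Argonaute gene, Ago4, lies next to Ago1 on chromosome 4, with Ago3 on the other side of Ago1 (RefSeq, assembly GRCm38.p6). Ago4 read 16.5, 12.3 and 12.6 on the shRNA arrays, against 14.9, 14.2 and 14.0 on the scramble arrays. Both means lay under the receptor limit, at log2 3.77 and 3.84, so the array did not show a level of Ago4 above background in either group (log2 change −0.07 ± 0.13; limma, adjusted p = 0.836). Without shRNA replicate 2 its sign turned to 0.012. The germline Argonaute relatives Piwil1, Piwil2 and Piwil4 were also under the limit in both groups, and 0 of the 4 genes passed in either direction (limma; none had an unadjusted p under 0.05).

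Of the GW182 genes, Tnrc6c read 162, 163 and 175 on the shRNA arrays, against 130, 122 and 122 on the scramble arrays. All 3 shRNA arrays were brighter. The means were 167 ± 7.24 in shRNA cells and 125 ± 4.73 in scramble cells, a rise of 0.42 ± 0.09 (limma, adjusted p = 0.0208; 95% interval of the ratio 1.16 to 1.53).

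Tnrc6a, which encodes the founding GW182 protein, had 224, 224 and 221 units on the shRNA arrays, against 185, 198 and 216 on the scramble arrays. The groups did not overlap, but scramble array 3 came within a few units of the shRNA arrays. Its log2 change was 0.16 ± 0.09, a ratio of 1.12 with an interval of 0.965 to 1.30 (limma, adjusted p = 0.378). The change of Tnrc6c exceeded that of Tnrc6a by 0.25 ± 0.10, and that of Dicer1 exceeded those of Drosha by 0.20 ± 0.07 and of Xpo5 by 0.38 ± 0.06, each with the exact permutation p of 0.1 given above.

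**Figure D2:**
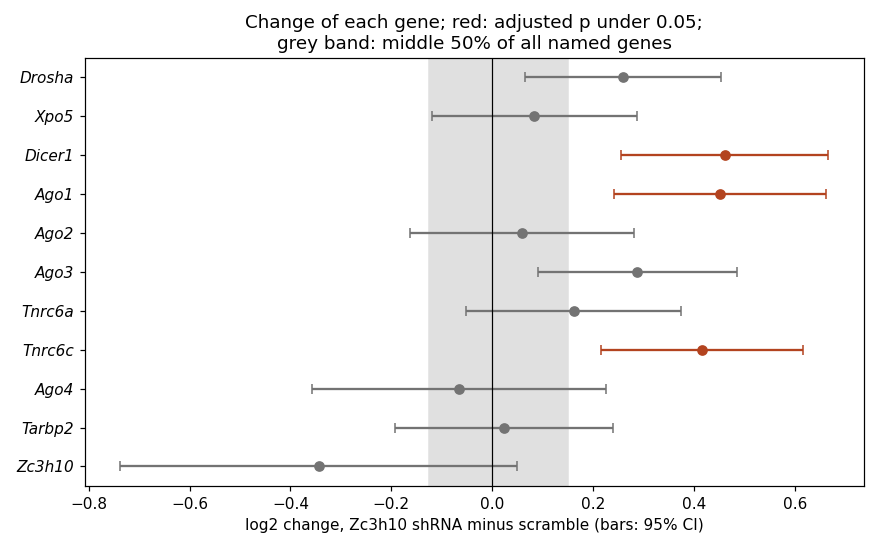
Log2 change, Zc3h10 shRNA minus scramble, with its 95% confidence interval from the limma fit for the 8 measured genes and for Ago4, Tarbp2 and Zc3h10; red points passed an adjusted p under 0.05 and the grey band is the middle 50% of all named genes (−0.13 to 0.15). Dicer1, Ago1 and Tnrc6c sit at 0.42 to 0.46, with intervals clear of the band.

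Leaving out single arrays ended the calls of Ago1 and Tnrc6c too. Ago1 was lost without shRNA replicate 2 (limma, adjusted p = 0.0684) or 3 (0.0617) and without scramble replicate 1 (0.0560) or 2 (0.0757). Tnrc6c was lost without shRNA replicate 2 (limma, adjusted p = 0.0572) or 3 (0.0821) and without scramble replicate 2 (0.0806) or 3 (0.0762). The number of the 8 genes that passed was 0 without shRNA replicate 2 or 3 and 1 without scramble replicate 2 or 3. No alternative turned the sign of any of the 8 changes.

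**Figure D3:**
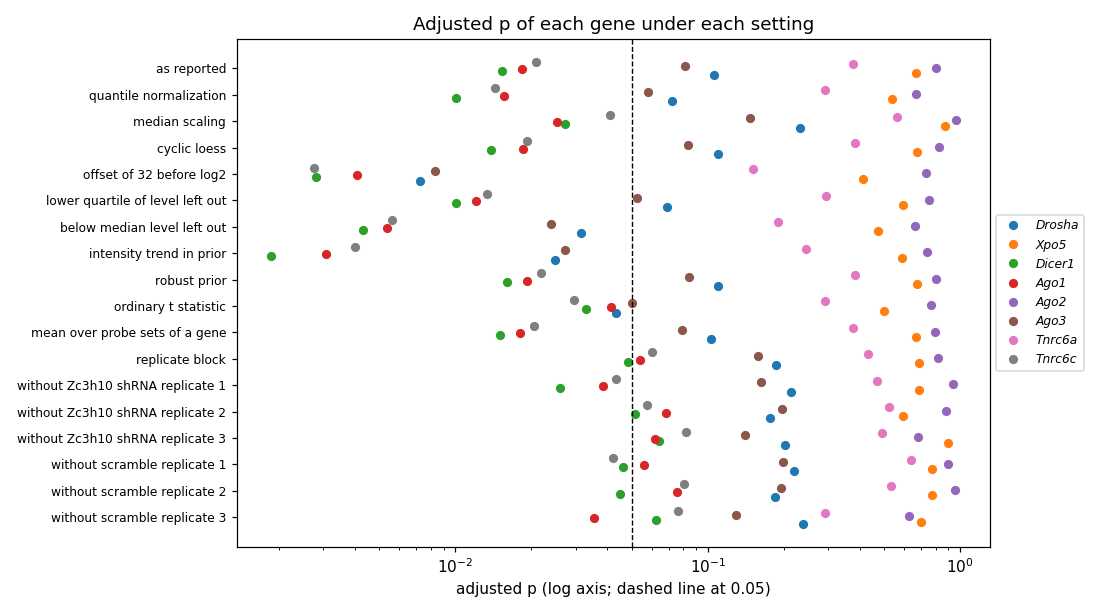
Adjusted p (log axis) of the 8 measured genes as reported and under 17 alternative settings, 1 colour a gene, with the 0.05 threshold dashed. Dicer1 stays under the threshold in 14 of 17 alternatives and Ago1 and Tnrc6c in 12 each; Drosha and Ago3 cross it in 4 each; Xpo5, Ago2 and Tnrc6a in 0.

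By the root mean square difference of gene-centred log2 values over the 6 arrays, the genes nearest to Dicer1 among 10734 were Csnk1e (0.021), a casein kinase gene, Glce (0.026), which encodes an epimerase of heparan sulfate synthesis, and the small GTPase gene Rap1b (0.029). Nearest to Ago1 were Zmym4 (0.021), the homeobox gene Irx2 (0.026) and the metalloproteinase gene Adamts1 (0.027). Nearest to Tnrc6c were Rev3l (0.012), a DNA polymerase gene, the monoamine oxidase gene Maoa (0.023) and Tceanc (0.025). The measure is dominated by the difference between the groups, so it lists genes with a rise of like size.

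The promoters of the 3 genes that passed as higher are shown. Whether their rises share a control was not tested. Each run is the 250 bases before the annotated start, in RefSeq's GRCm38.p6, with matches in capitals to any of 6 short motifs on either strand: the CCAAT box (CCAAT), the GC box (GGGCGG), an ETS site (CCGGAAG), the E-box (CACGTG), the cAMP response element (TGACGTCA) and the TATA box (TATAAA). Ago1 has 2 listed starts and the one farther upstream is given.
Dicer1 (chr12:104751953-104752202, minus strand): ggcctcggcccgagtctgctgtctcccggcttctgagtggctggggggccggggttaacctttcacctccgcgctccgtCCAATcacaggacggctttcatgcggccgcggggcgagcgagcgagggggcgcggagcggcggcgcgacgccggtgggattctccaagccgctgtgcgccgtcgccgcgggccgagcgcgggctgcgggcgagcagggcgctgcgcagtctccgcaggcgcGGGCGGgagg
Ago1 (chr4:126468632-126468881, minus strand): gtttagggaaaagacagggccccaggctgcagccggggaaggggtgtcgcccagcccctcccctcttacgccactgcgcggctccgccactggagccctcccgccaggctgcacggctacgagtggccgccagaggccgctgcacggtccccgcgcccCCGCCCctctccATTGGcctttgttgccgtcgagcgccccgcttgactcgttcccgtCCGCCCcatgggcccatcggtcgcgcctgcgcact
Tnrc6c (chr11:117654039-117654288, plus strand): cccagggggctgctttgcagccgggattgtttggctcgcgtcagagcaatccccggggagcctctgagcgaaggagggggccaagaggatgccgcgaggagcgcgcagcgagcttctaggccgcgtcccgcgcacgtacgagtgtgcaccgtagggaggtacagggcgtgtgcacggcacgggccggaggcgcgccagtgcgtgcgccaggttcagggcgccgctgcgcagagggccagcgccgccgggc

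Dicer1 held 1 CCAAT box and 1 GC box, Ago1 held 1 CCAAT box and 2 GC boxes, and Tnrc6c held no match to the 6 motifs. The CCAAT box stood in 5 and the GC box in 6 of the 9 promoters available for the 10 genes (Ago2 is not among them), against 33.9% and 32.7% of 32851 windows of the same length in the table. The ETS letters stood in 2 of the 9, Drosha and Ago3, against 6.91% of windows. The E-box, the cAMP response element and the TATA box stood in 0 of the 9, against 6.02%, 1.55% and 12.4% of windows. The GC content was 76.0% for Dicer1 and 72.4% for both Ago1 and Tnrc6c, and the median window had 52.4%. Over the 9 promoters it ran from 42.4% to 76.0%. The windows were not matched for GC content, so the motif shares do not set these promoters apart from others of like content. A match is a description of the letters and shows no binding.

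These arrays read whole cultures, in which fewer cells of a type and less RNA per cell cannot be told apart. Of 7 adipocyte markers, all 7 fell, and their summed intensity was 8647 to 9415 on shRNA arrays and 15383 to 16887 on scramble arrays. Of 4 measured markers of proliferating cells, all 4 rose, with sums of 654 to 794 on shRNA arrays and 368 to 465 on scramble arrays. The 6 measured fibroblast and progenitor markers had 1 rise, Pdgfrb, and 1 fall, Pdgfra, with overlapping sums. Of the 5 macrophage markers 4 were under the receptor limit in both groups, as were 3 of 4 endothelial markers. Adipocyte markers thus fell and proliferation markers rose in the cultures where Dicer1, Ago1 and Tnrc6c rose. The part of either shift in those rises was not tested.

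The factors that assist the core enzymes were measured as a list. Of 17 genes of processing cofactors, 0 passed in either direction (limma; 3 had an unadjusted p under 0.05), and their median log2 change was 0.01. Tarbp2, the double-stranded RNA-binding partner of Dicer, read 39.6, 37.5 and 40.9 on the shRNA arrays, against 38.6, 36.1 and 41.6 on the scramble arrays. The groups overlapped throughout (log2 change 0.02 ± 0.09; limma, adjusted p = 0.928), with a 95% interval of the ratio of 0.875 to 1.18 that leaves out the 1.38 of Dicer1. Khsrp, which binds the loops of some precursors and promotes their processing, was at 0.34 ± 0.09 (limma, adjusted p = 0.0533), with 316, 344 and 315 on the shRNA arrays, against 261, 244 and 267 on the scramble arrays. The helicase gene Ddx5, a Microprocessor partner, was at −0.29 ± 0.09 (adjusted p = 0.0974). Khsrp passed in 5 and Ddx5 in 3 of the 17 alternatives, so the list's count of 0 is sensitive to the analysis.

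Chaperones load the duplex into Argonaute. Of 6 measured, 1 fell and 0 rose, with a median of 0.03, where 6.60% of all named genes fell. With 6 genes the count tests nothing about the list. Hspa8 had 4 probe sets. Its brightest, used here, was at 0.05 ± 0.09, and the dimmer ones at −0.27, −0.30 and −0.31. None of the 4 passed (limma, adjusted p from 0.196 to 0.804). The median of the list rests on that choice of probe set. Fkbp4, an immunophilin that binds Hsp90, was at 160, 146 and 148 on the shRNA arrays, against 205, 198 and 191 on the scramble arrays. The groups did not overlap, and the change was −0.39 ± 0.09 (limma, adjusted p = 0.0276), lost without shRNA replicate 2 or 3 or any 1 scramble replicate and highest then at 0.0953.

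Downstream of GW182 lie the deadenylases, the decapping enzymes and the exonuclease. Of 24 such genes 1 rose and 1 fell, with a median of 0.02, where 5.51% of all named genes rose and 6.60% fell. Pan3, the subunit through which GW182 proteins contact the PAN2-PAN3 deadenylase, was at 446, 434 and 449 on the shRNA arrays, against 343, 349 and 341 on the scramble arrays. All shRNA arrays were brighter, a rise of 0.36 ± 0.08 (limma, adjusted p = 0.0277). It was lost without any 1 of the 6 arrays and with median scaling, at up to 0.0938. Tob1, an antiproliferative adaptor of the CCR4-NOT deadenylase, had 466, 391 and 457 units on the shRNA arrays, against 789, 871 and 854 on the scramble arrays. This was the widest gap of the list, at −0.94 ± 0.10 or 1.92-fold lower (limma, adjusted p = 0.00150), and it passed in all 17 alternatives.

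Among 15 other Argonaute partners and RNA-binding cofactors 3 rose and 0 fell, or 20.0%, with a median of 0.11. Of these 15 genes 14 lay above the receptor limit in both groups, where 9.66% of named genes rose, and with so few genes the share tests nothing about the list. Fmr1, the RNA-binding protein gene of fragile X syndrome, read 563, 612 and 615 on the shRNA arrays, against 376, 386 and 395 on the scramble arrays. The groups were far apart, a rise of 0.63 ± 0.09 or 1.55-fold (limma, adjusted p = 0.00361). Ajuba, a LIM domain protein gene, was at 195, 162 and 190 on the shRNA arrays, against 114, 94.4 and 107 on the scramble arrays, a rise of 0.79 ± 0.11 (limma, adjusted p = 0.00455). Both passed in all 17 alternatives. Zswim8, the substrate receptor of a ubiquitin ligase that acts on Argonaute in target-directed microRNA decay, rose by 0.33 ± 0.08 (limma, adjusted p = 0.0413), with means of 244 ± 1.99 in shRNA cells and 194 ± 5.72 in scramble cells, and was lost without any 1 of the 6 arrays and with median scaling, at up to 0.134.

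**Figure D4:**
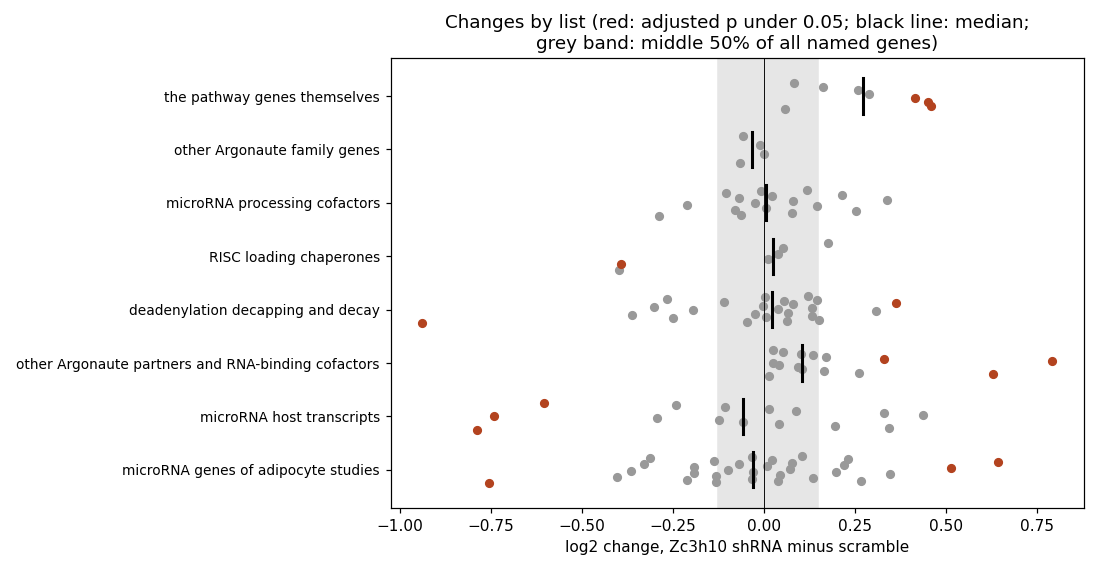
Log2 change, Zc3h10 shRNA minus scramble, of every measured gene in the 8 core genes and the 7 lists around them; red points passed an adjusted p under 0.05, black lines are medians and the grey band is the middle 50% of all named genes. The median of the core genes lies at 0.27, beyond the band, and those of the 7 lists lie between −0.06 and 0.11, within it. Each gene is read by its brightest probe set, and the chaperone median depends on that choice for Hspa8.

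Many microRNAs sit in introns of other genes. Of 15 measured host transcripts 0 rose and 3 fell, Pank1, Pank3 and Ppargc1b, where 6.60% of all named genes fell. The adipocyte markers fell in the same cultures, and their part in these falls was not tested. Pank1 and Pank3 encode pantothenate kinases and carry Mir107 and Mir103-1, and the microRNA-103/107 family is reported to bind the DICER1 transcript in human cancer cells. The mature strands are shown for that reason, from RefSeq's GRCm38.p6, with the seed (bases 2 to 8) in capitals. Both have the seed GCAGCAU.
mmu-miR-103-3p: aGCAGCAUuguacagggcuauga
mmu-miR-107-3p: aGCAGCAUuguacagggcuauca

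Pank1 read 93.9, 78.9 and 89.4 on the shRNA arrays, against 132, 167 and 154 on the scramble arrays, a change of −0.79 ± 0.12 or 1.73-fold lower (limma, adjusted p = 0.00538). Pank3 read 1799, 1565 and 1888 on the shRNA arrays, against 2408, 2704 and 2867 on the scramble arrays, at −0.60 ± 0.11 (limma, adjusted p = 0.0125). Neither pair of groups overlapped. The microRNA genes themselves gave no detectable difference, at −0.21 ± 0.25 for Mir107 (limma, adjusted p = 0.704), −0.19 ± 0.17 for Mir103-1 (0.606) and 0.27 ± 0.29 for Mir103-2 (0.677), and all 3 lay under the receptor limit in both groups. Whether the falls of Pank1 and Pank3 and the rise of Dicer1 are linked was not tested. Ppargc1b, a coactivator gene that hosts Mir378a, was at −0.74 ± 0.16 (limma, adjusted p = 0.0249), or −0.45 with an offset of 32. Pank3 was lost without scramble replicate 2 or 3, at up to 0.0533, and Ppargc1b without scramble replicate 2 or 3 or shRNA replicate 2 or 3, at up to 0.0936. With the ordinary t statistic Pank1 (adjusted p = 0.0517) and Pank3 (0.0677) were lost. Ppargc1b was lost with that statistic and with a replicate block, at an adjusted p of up to 0.143.

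The products of the pathway can be read only in part. The array has probe sets with no other gene symbol for 478 microRNA genes. MicroRNA genes that share a probe set with another symbol, Mir21a, Mir27b and Mir155 among them, are left out of every count here. The probe sets cannot tell a primary transcript, a precursor and a mature strand apart, and 365 of the 478 genes were under the receptor limit in both groups. Of the 478, 18 rose (3.77%) and 1 fell, a share of rises below the 5.51% of all named genes, and their median log2 change was 0.04. The scramble mean was under the limit for 13 of the 19, which leaves the size and order of those changes uncertain, and 5 were above it in both groups. Between Dlk1 and Dio3, an imprinted stretch of chromosome 12 with a large microRNA cluster, 8 of 43 genes rose, and elsewhere 10 of 435 rose and 1 fell. The difference between those shares was not tested, and with an offset of 32 added before log2, which shrinks changes of dim probe sets, 6 rose in the stretch and 9 elsewhere.

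The 5 genes with the largest fitted rises were in that stretch, but the scramble means of 4 of them were under the receptor limit. With the offset the first 5 were Mir453, Mir493, Mir5125, Mir382 and Mir761, of which 3 lie there. Mir493 read 22.1, 45.4 and 31.2 on the shRNA arrays, against 7.26, 9.06 and 8.25 on the scramble arrays, at 1.95 ± 0.24 (limma, adjusted p = 0.00215), or 0.68 with the offset. Mir453 read 167, 162 and 203 on the shRNA arrays, against 55.0, 31.5 and 55.9 on the scramble arrays, at 1.94 ± 0.22 (limma, adjusted p = 0.00168), or 1.41 with the offset, and it alone of the 5 was above the receptor limit in both groups. Mir382 was at 1.35 ± 0.16, Mir300 at 1.18 ± 0.20 and Mir679 at 1.16 ± 0.16, against 0.52, 0.38 and 0.41 in that order with the offset. All 5 passed with and without the offset. With the ordinary t statistic the calls of Mir493, Mir300 and Mir679 were lost, while Mir453 and Mir382 passed in all 17 alternatives. The 1 fall was that of Mir365-1, with 15.5, 15.4 and 11.1 on the shRNA arrays, against 23.6, 26.5 and 20.4 on the scramble arrays. Its log2 change was −0.76 ± 0.16 (limma, adjusted p = 0.0205), or −0.27 with the offset. The call was lost without scramble replicate 1 or 2 and with the ordinary t statistic (adjusted p = 0.128). Their mature strands follow with the seed in capitals, to show which strands these genes could supply, and no 2 of them share a seed.
mmu-miR-493-5p: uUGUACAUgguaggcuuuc
mmu-miR-493-3p: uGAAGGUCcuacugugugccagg
mmu-miR-453: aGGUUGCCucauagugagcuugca
mmu-miR-382-5p: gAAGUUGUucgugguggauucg
mmu-miR-382-3p: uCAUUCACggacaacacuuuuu
mmu-miR-300-5p: uUGAAGAGagguuauccuuugu
mmu-miR-300-3p: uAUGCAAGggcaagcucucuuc
mmu-miR-679-5p: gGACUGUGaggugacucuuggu
mmu-miR-679-3p: aGCAAGGUccuccucacaguag
mmu-miR-365-1-5p: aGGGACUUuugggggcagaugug
mmu-miR-365-3p: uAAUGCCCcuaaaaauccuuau

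Of 31 measured microRNA genes known from adipocyte studies, 2 rose (6.45%) and 1 fell, where 5.51% of all named genes rose and 6.60% fell. Their median was −0.03, and 25 were under the receptor limit in both groups. Mir143, which is reported to promote adipocyte differentiation in cultured cells, had 43.5, 38.9 and 42.8 units on the shRNA arrays, against 22.2, 31.7 and 27.0 on the scramble arrays. The groups did not overlap (log2 change 0.64 ± 0.14, or 0.32 with the offset; limma, adjusted p = 0.0228). The call was lost without any 1 of the 3 shRNA replicates or scramble replicate 3, and with the ordinary t statistic. Mir221 passed too but lay under the limit in both groups, at 0.51 ± 0.09 or, with the offset, 0.10, so its size is uncertain. The fall was Mir365-1.

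**Figure D5:**
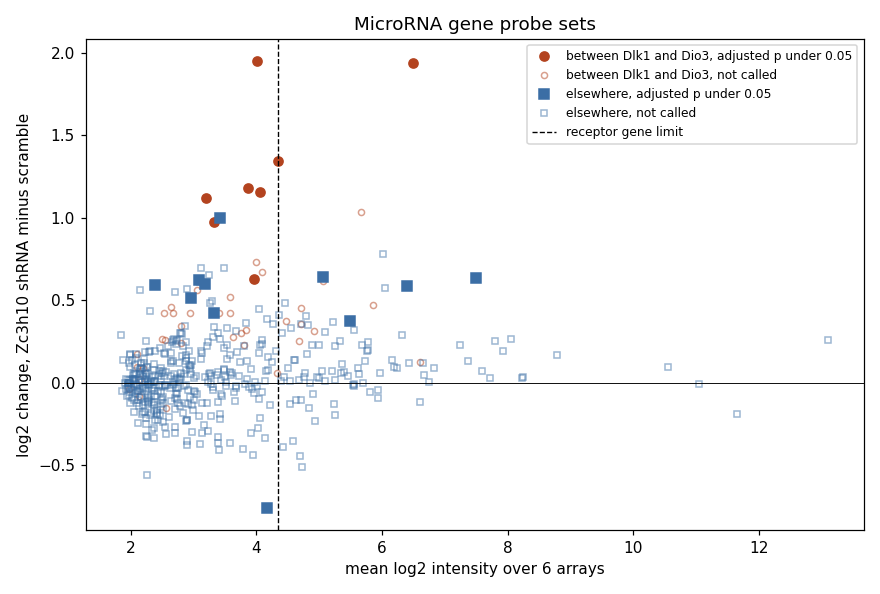
Log2 change, Zc3h10 shRNA minus scramble, of 478 microRNA genes against their mean log2 intensity over the 6 arrays; circles lie between Dlk1 and Dio3, squares elsewhere, filled symbols passed an adjusted p under 0.05 and the dashed line is the receptor limit of 4.34. Most points lie left of the line, and 8 of the 18 rises are circles.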

How the data were processed

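The authors deposited 1 summarised intensity per probe set and array on a linear scale, with 1 array per culture. Values were above 0 and array medians were close, but whether arrays were scaled to each other is not stated. The submitters' processing notes list Partek 6.6 and Affymetrix Expression Console, with no role or order. The background correction was not given in the sources used here and matters most for dim probe sets.

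Log2 was taken with no offset. All 33079 probe sets were fitted with limma 3.58.1 in R 4.3.3 (lmFit, eBayes, 4 residual degrees of freedom, two-sided, Benjamini-Hochberg over all probe sets, threshold 0.05). Precision is limited by having 3 arrays a group. Each limma p-value sets a change against the spread between these cultures. That spread is drawn toward a prior fitted over all probe sets, which had 4.00 degrees of freedom. Symbols came from the platform annotation: 23043 probe sets had 1 symbol, 1740 several and 8296 none. Gene numbers were checked against RefSeq (GRCm38.p6), which changed 0 symbols, with 169 unmatched. Promoter and microRNA sequences are RefSeq's.

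The members and lists were chosen with earlier results of these data known. Named were all members, Zc3h10, Ago4, Tarbp2, up to 4 called genes per list (or the 2 with the smallest p), the 5 largest microRNA rises and falls, and the 3 genes nearest in pattern to each called member. Mir107, Mir103-1, Mir103-2, Mir5125 and Mir761, and Pdgfra and Pdgfrb among the markers, were named after their values were seen. The 17 alternatives were 3 scalings, an offset of 32, 2 filters, 2 priors, an ordinary t statistic, a mean over probe sets, a replicate block and 6 analyses without 1 array. The code was tested on simulated data.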

Additional observations from a re-analysis of the deposited data

How the results depend on the processing

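The 8 member changes kept their sign in all 136 values from the 17 alternatives, 115 of them on the same side of the threshold, with 13 calls lost and 8 gained. The 3 calls became 5 with an offset of 32, when dim probe sets (below the median level) were dropped, with an intensity trend in the prior or with the ordinary t statistic, adding Drosha and Ago3. Without 1 array they were 0 to 3. Labels share replicate numbers. Deviations of same-numbered arrays correlated at −0.0046 to 0.084, and 2 of 3 shRNA arrays correlated best with their own number. With 3 arrays a group these values cannot settle whether same-numbered arrays shared a batch, and the reported fit left the numbers out. With the replicate block 1 member (Dicer1) passed, with chaperones 0, decay 1, partners 2 and hosts 2, and the calls of Ago1, Tnrc6c, Fkbp4, Pan3, Zswim8, Ppargc1b and Mir143 were lost. Processing cofactors had 1 call with quantile normalization or the lower quartile left out, and 3 with the offset, the median filter or the trend. The same 3 settings gave 2 chaperones, and 6, 4 and 4 decay genes, which had 1 with median scaling. Host transcripts had 5 with the median filter or the trend. The ordinary t statistic called 0 hosts, 1 adipocyte microRNA gene, 6 microRNA genes and 1972 probe sets, against 3238 as reported. Without 1 array, counts were 0 to 1 for chaperones, 1 to 1 for decay, 1 to 3 for hosts, 12 to 22 for microRNA genes (12 without scramble replicate 2) and 1807 to 2578 for probe sets. The cause of these shifts was not tested. Signs turned in genes near 0: Tarbp2 with median scaling (−0.0036) and without shRNA replicate 3 (−0.0049) or scramble replicate 2 (−0.026; range without 1 array −0.026 to 0.075), Ago4 without shRNA replicate 2 (0.012; −0.20 to 0.012), and Piwil2 without shRNA replicate 3 (0.013) or scramble replicate 2 (0.072; −0.18 to 0.072). The median filter left out 349 of 478 microRNA genes, 10 of the 19 called ones among them, and the 4 other Argonaute family genes. Scalings moved the median of all genes by at most 0.023.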
